A study of Mus musculus with 2 samples.

Results

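A set of 10 genes for transcription factors that mark or direct the blood lineages of the bone marrow were described cell by cell in the 10x Genomics single cell RNA-Seq counts of bone marrow cells (BMCs). The factors were chosen by name, without reference to their counts. They are Gata1, Gata2, Klf1 and Gfi1b of the erythroid, megakaryocytic and progenitor cells, Cebpa, Cebpe, Spi1 and Irf8 of the myeloid cells, and Ebf1 and Pax5 of the B cells. Of these 10, the same 9 were listed in the WT counts, among 7181 genes, and in the Cko counts, among 6735. Pax5 was listed in neither, and its level was not taken as 0, because the lists hold only genes with 4 or more UMIs in some cell. A UMI (unique molecular identifier) tags 1 captured RNA molecule.

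The WT library came from BMCs of 1 mouse with a floxed site-1 protease gene (Mbtps1, S1P f/f) and no Cre, and the Cko library from 1 S1P f/f mouse that also carried the Osx-Cre transgene, which expresses a GFP::Cre fusion from the Osterix promoter. Both mice were at postnatal day 21 and of the C57BL6/J strain, the red blood cells were lysed, and cells were taken from hindlimbs and forelimbs. No animal with Cre alone was analysed here, and Osx-Cre is named for the osteoblast lineage although its GFP was also seen in hematopoietic cells of this line. After barcodes with fewer than 200 genes were left out, 6271 WT and 3662 Cko cells remained, with a median of 6977 and 7440 UMIs per cell, and 28 barcode sequences occurred in both libraries. With 1 library per genotype there was no replicate check and no test, and every 95% interval below covers counting error only. Mbtps1, the targeted gene, was at 31.9 CPM (UMIs of a gene per 1000000 UMIs of the cells compared) in WT and 31.2 in Cko, but reads from the 3′ end of the transcript do not test the deletion of exon 2.

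Lineage factors bind short DNA motifs in promoters and enhancers and switch on the genes of a cell type, often along with their own gene. Gata2 acts in stem and progenitor cells, mast cells and basophils, and gives way to Gata1 as erythroid cells differentiate. Klf1 activates the globin genes, heme synthesis and red cell membrane genes, and Gfi1b is a repressor needed for red cells and platelets. Spi1 (PU.1) acts in all myeloid cells and at a lower level in B cells, Cebpa at the entry to the granulocyte and monocyte lineages, Cebpe at the later granulocyte stages, and Irf8 in monocytes, dendritic cells and B cells. Ebf1 commits progenitors to the B lineage together with Pax5. GATA1 and PU.1 are a textbook example of proteins that bind and inhibit each other.

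The genes lie apart on the mouse genome (GRCm38, GENCODE positions). Gata1 spans chrX:7959260-7978071 and Gfi1b chr2:28609450-28621982, both on the minus strand, whereas Klf1 (chr8:84901928-84905291) and Gata2 (chr6:88193891-88207032) are on the plus strand. Cebpa lies at chr7:35119293-35121928 (plus), Cebpe at chr14:54710360-54712174 (minus), Spi1 at chr2:91082390-91115756 (plus), Irf8 at chr8:120736358-120756694 (plus), Ebf1 at chr11:44617317-45008091 (plus) and Pax5 at chr4:44524757-44710487 (minus).

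The promoters of Gata1, Klf1 and Gfi1b are shown because these 3 factors were found together in single cells and at their highest levels in erythroid-like clusters. They are written 5′ to 3′ on the strand of the gene (RefSeq, GRCm38.p6), over 250 bases before the RefSeq start for Gata1 (chrX:7967911-7968160, minus strand) and Gfi1b (chr2:28621983-28622232, minus strand). For Klf1 the RefSeq start lies within the first GENCODE exon, and 196 bases up to that exon are shown (chr8:84901732-84901927, plus strand). Capitals mark GATAAG, a motif of GATA factors that reads CTTATC on the opposite strand, and CCACCC, a motif of Klf1, both searched on either strand.
Gata1: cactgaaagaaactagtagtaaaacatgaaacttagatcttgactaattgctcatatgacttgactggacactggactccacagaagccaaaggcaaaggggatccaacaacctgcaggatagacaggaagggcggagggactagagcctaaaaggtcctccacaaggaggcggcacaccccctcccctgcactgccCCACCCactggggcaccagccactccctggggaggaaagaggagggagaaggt
Klf1: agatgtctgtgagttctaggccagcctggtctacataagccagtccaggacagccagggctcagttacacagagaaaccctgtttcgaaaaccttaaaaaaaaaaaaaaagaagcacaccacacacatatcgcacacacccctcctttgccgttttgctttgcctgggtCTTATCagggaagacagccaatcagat
Gfi1b: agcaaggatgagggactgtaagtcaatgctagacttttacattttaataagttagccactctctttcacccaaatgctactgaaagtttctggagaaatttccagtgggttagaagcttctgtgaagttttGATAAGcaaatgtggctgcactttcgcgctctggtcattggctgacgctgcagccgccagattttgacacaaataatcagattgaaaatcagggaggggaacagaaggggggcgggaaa
GATAAG stands in the Klf1 promoter at position -81 and in the Gfi1b promoter at -119, counted from the base before the RefSeq start as -1, and CCACCC in the Gata1 promoter at -53. Over the 250 bases before the start, 6.55% of 32851 mouse promoters held GATAAG, 28.1% held CCACCC and 1.51% held both. The motifs were chosen after these letters were seen, and a match is a description and not a binding site. Of the other factors, Cebpa held CCACCC at -242 and the Gata2, Irf8, Ebf1 and Pax5 entries held neither motif, while Cebpe and Spi1 had no entry.

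Cells of both libraries were clustered together without the 10 factors, so that no factor could define the cells in which it was measured. Of the 16 clusters, 4 were erythroid-like, led in order of rising hemoglobin by Mt2 and Car1, by Acp5 and Hebp1, by Hemgn and Slc4a1, and by Bpgm and Tmcc2. Further clusters were granulocyte-monocyte progenitor-like (GMP-like), neutrophil-like (an earlier one led by Camp and Ltf and a later one led by Mmp8 and Retnlg), monocyte-like, macrophage-like, B cell-like (3 clusters), T and NK cell-like, and stromal and endothelial-like. A cluster led by Ctla2a and Plek, with progenitor, megakaryocyte and dendritic cell genes, and another with Ly6d, Retnlg and hemoglobin together, were left unnamed. In the latter, 85.0% of the WT and 64.3% of the Cko barcodes held marker RNA of 2 lineages, and no result rests on it. Over all cells 342 WT barcodes (5.45%) and 92 Cko barcodes (2.51%) were of this kind. Hemoglobin took a median of 0.322% of the UMIs of the WT Vpreb3/Cd79b B cell-like cells and 0.0862% of the Cko ones. Over the non-erythroid clusters other than the Ly6d/Retnlg and macrophage-like ones, these medians ran from 0.241% to 0.404% in the WT and from 0.0594% to 0.119% in the Cko, without overlap.

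**Figure D1:**
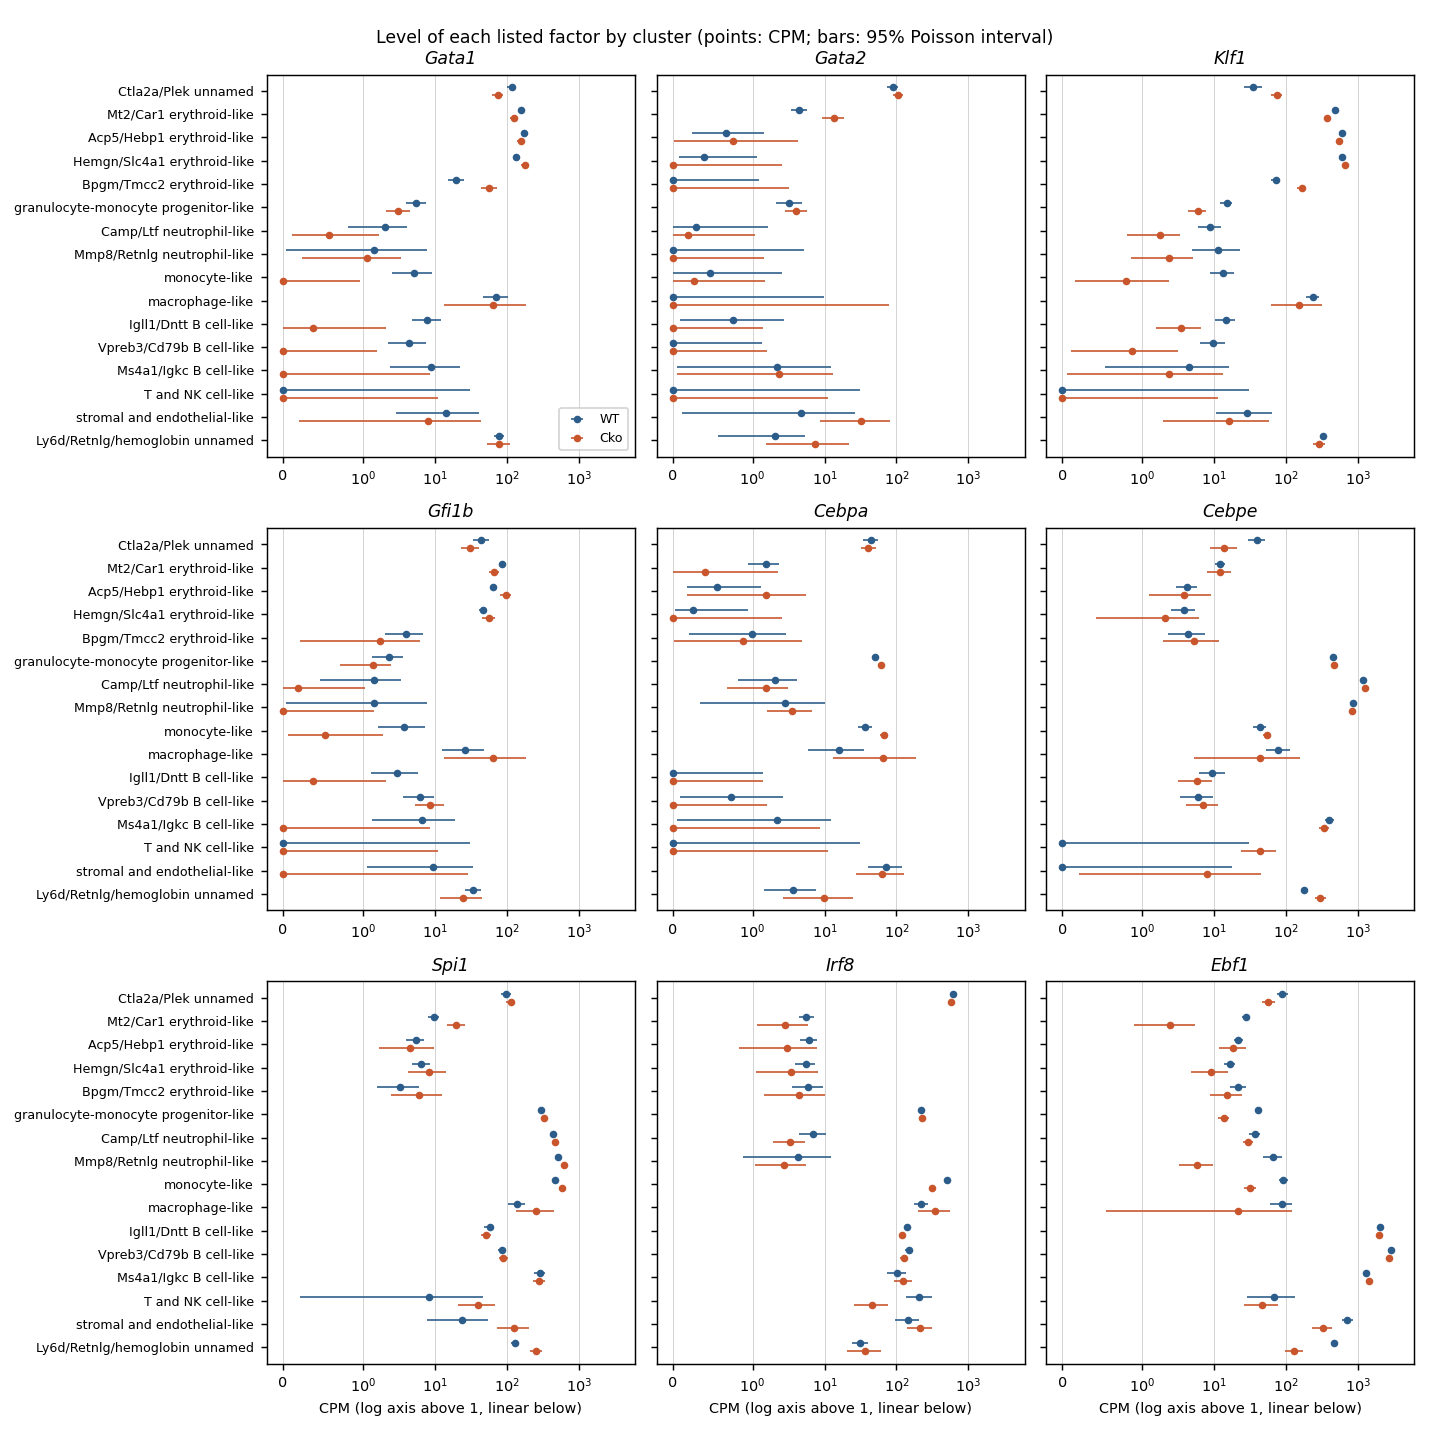
Level of the 9 listed factors in the 16 clusters of the WT (blue) and Cko (orange) library, in CPM over the UMIs of the cluster (horizontal axis, log above 1 CPM and linear below) with 95% Poisson intervals. Klf1 reached 654 CPM in the Hemgn/Slc4a1 erythroid-like cells, Cebpe 1228 in the Camp/Ltf neutrophil-like cells and Ebf1 2855 in the Vpreb3/Cd79b B cell-like cells, while Gata2 was highest in the unnamed Ctla2a/Plek cluster.

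The factors differed widely in abundance. Ebf1 and Klf1 were the most abundant in the WT, with 289 and 308 CPM over all cells, and Cebpe (374 CPM) and Ebf1 (368 CPM) in the Cko. Gata2 was the rarest, with 233 UMIs in 125 WT cells and 258 UMIs in 117 Cko cells. A cell that held Ebf1 had a median of 11 UMIs of it in WT and 14 in Cko, whereas 71.4% of the WT and 59.4% of the Cko cells with Cebpa held a single UMI. For Cebpa, Gata2 and Gfi1b a cell without a UMI can therefore not be read as a cell without the RNA.

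Over all cells the levels followed the cells sampled. Gata1 was at 92.5 CPM in WT and 30.3 in Cko, Klf1 at 308 and 88.9, and Gfi1b at 40.2 and 13.9, with erythroid-like cells numbering 3391 of 6271 in the WT and 528 of 3662 in the Cko. The myeloid factors went the other way, Cebpe from 156 to 374 CPM, Spi1 from 112 to 290 and Cebpa from 10.5 to 25.3, with 635 WT and 1123 Cko neutrophil-like cells. A level over all cells joins the number of cells of a type with the RNA per cell, and the libraries were therefore compared within clusters.

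For this count each of the 9 factors was read in a single class or cluster. This was erythroid-like for Gata1, Klf1 and Gfi1b, GMP-like for Cebpa, neutrophil-like for Cebpe and monocyte-like for Spi1 and Irf8. Ebf1 was read in B cell-like cells and Gata2 in the Ctla2a/Plek cluster. There none lay past a 2-fold Cko/WT ratio, although Spi1 did in monocyte-like cells (1.03) when each library was clustered on its own. In other clusters some ratios of these factors were past 2-fold, as given below. The share of all genes past 2-fold either way was 4.35% of 5332 genes with at least 50 UMIs in erythroid-like cells, 2.24% of 5399 in GMP-like cells, 3.24% of 4785 in neutrophil-like cells, 4.31% of 4986 in monocyte-like cells, 2.06% of 5242 in B cell-like cells and 7.33% of 5005 in the Ctla2a/Plek cluster. The count of 0 among 9 factors was close to this background.

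**Figure D2:**
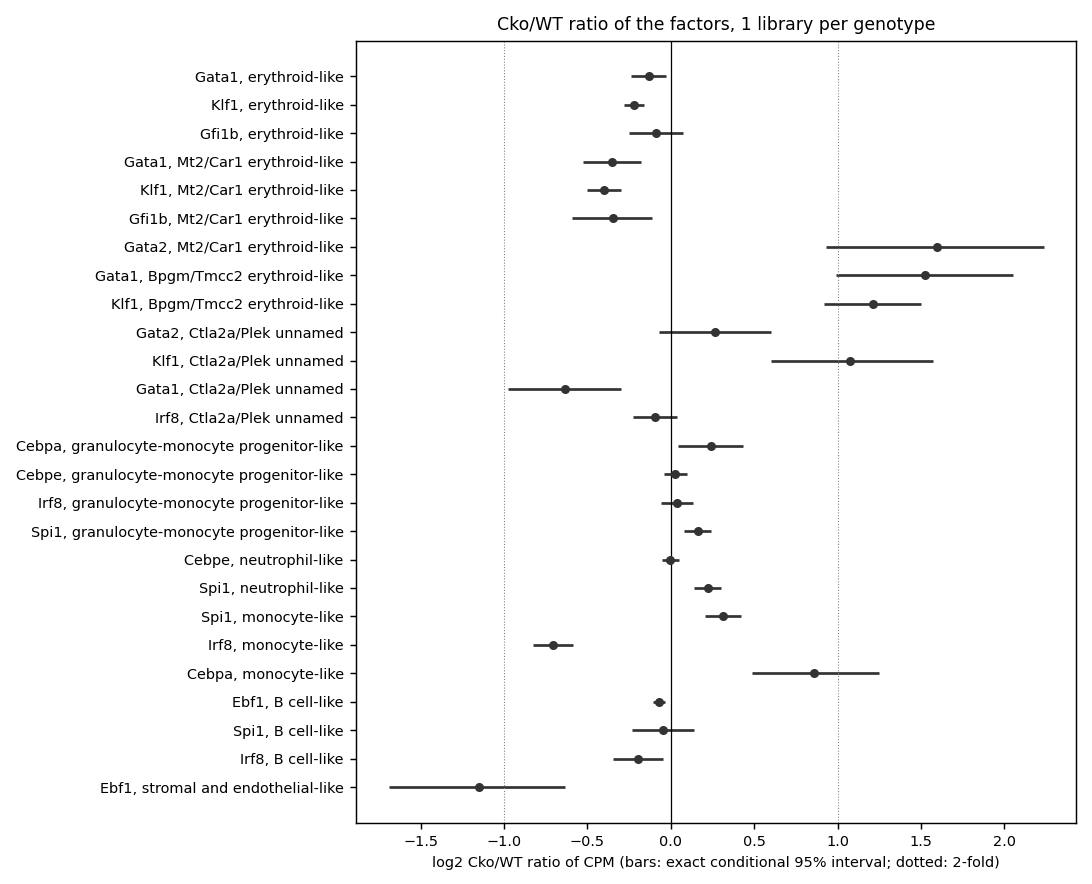
Log2 Cko/WT ratio of CPM (horizontal axis) for 26 pairs of a factor and a class or cluster, with exact conditional 95% intervals and dotted lines at 2-fold. Most of these points lie between the dotted lines. Gata2 in the Mt2/Car1 cells (1.59) and Gata1 in the Bpgm/Tmcc2 cells (1.52) are farthest to the right, and Ebf1 in stromal and endothelial-like cells (-1.15) is farthest to the left. The 26 pairs are a selection. Pairs not drawn lie farther to the left, among them Ebf1 in the Mt2/Car1 cells (-3.475) and Cebpe in the Ctla2a/Plek cluster (-1.511).

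Gata1, Klf1 and Gfi1b were erythroid factors in both libraries. Of the Klf1 UMIs, 94.2% of the WT and 89.3% of the Cko ones were in erythroid-like cells, as were 91.3% and 81.0% of the Gata1 UMIs and 91.0% and 78.8% of the Gfi1b UMIs. After each cell was thinned to 3000 UMIs, 82.9% of the WT and 72.4% of the Cko Acp5/Hebp1 cells held Klf1. In Vpreb3/Cd79b B cell-like cells, which should lack it, these shares were 3.46% and 0.299%, at median depths of 4536.5 and 5503.5 UMIs against 9815 and 12091 in the Acp5/Hebp1 cells. No UMI of Klf1 was seen in the 19 WT and 63 Cko T and NK cell-like cells, which allows up to 25 and 9.18 CPM.

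Over the whole erythroid-like class the libraries lay close together. Klf1 was at 500 CPM in WT and 429 in Cko, a log2 ratio of -0.22 (95% interval -0.28 to -0.16), and Gata1 at 145 and 133 (-0.13, -0.24 to -0.03). Gfi1b was at 63.1 and 59.4 CPM, and the interval of its ratio included 0 (-0.09, -0.25 to 0.07). The median ratio over all 5332 genes in these cells was itself below 0, at -0.14.

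By stage the order of the clusters differed between the libraries. In the WT, Gata1 was at 160 CPM in the Mt2/Car1 cells, 177 in the Acp5/Hebp1 cells, 133 in the Hemgn/Slc4a1 cells and 19.9 in the Bpgm/Tmcc2 cells. In the Cko it was at 126, 159, 180 and 57.1 CPM in the same order. The WT level was thus the higher in the first cluster, where the log2 ratio was -0.35 (-0.53 to -0.18), and the lower in the last, with 1.52 (0.99 to 2.05) from 60 and 65 UMIs.

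Klf1 was likewise lower in the Cko at the first stage and higher at the last, although its clusters had the same order of levels in both libraries. Its WT levels in this order were 478, 593, 595 and 71.3 CPM and its Cko levels 362, 534, 654 and 165 CPM. The log2 ratio went from -0.40 (-0.50 to -0.30) in the Mt2/Car1 cells to 1.21 (0.92 to 1.5) in the Bpgm/Tmcc2 cells, which are dominated by hemoglobin. In that last cluster 23.0% of 1345 genes lay past 2-fold and 17% lay above it, so Gata1 and Klf1 there were 2 of many.

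Gfi1b was highest at the first stage in the WT, with 86.1, 63.8, 46.6 and 3.98 CPM (the last from 12 UMIs) from the Mt2/Car1 to the Bpgm/Tmcc2 cells, and at the next stage in the Cko, with 67.7, 97.0, 56.5 and 1.76 CPM (the last from 2 UMIs). Its log2 ratio was -0.35 (-0.59 to -0.11) in the Mt2/Car1 cells and 0.61 (0.32 to 0.88) in the Acp5/Hebp1 cells. Of all genes in the Acp5/Hebp1 cells, 96.0% had a lower ratio than Gfi1b. The shares of all genes past 2-fold in these clusters were 5.54% for the Mt2/Car1, 3.91% for the Acp5/Hebp1 and 8.02% for the Hemgn/Slc4a1 cells, and none of these 3 factors was past 2-fold in them.

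Hemoglobin share gave an order of the erythroid-like cells without the single clusters. Erythroid-like cells were divided by the share of their UMIs from hemoglobin genes, under 1% (543 WT and 87 Cko cells), 1 to 10% (519 and 42), 10 to 50% (722 and 106) and at least 50% (1607 and 293). Klf1 was at 448, 570, 627 and 411 CPM in the WT and at 337, 510, 619 and 393 CPM in the Cko, a peak in the 10 to 50% bin of both. Gata1 was at 153, 177, 178 and 90.0 CPM in the WT and at 121, 140, 188 and 113 CPM in the Cko.

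The decline in the last bin depended on the denominator. In CPM over the UMIs without hemoglobin, Klf1 was at 455, 601, 850 and 1454 CPM in the WT and at 341, 536, 902 and 1345 CPM in the Cko, and was highest in the last bin. In UMIs per cell it was highest in the 1 to 10% bin and lowest in the last, at 8.01, 8.07, 5.52 and 2.37 in the WT and 8.41, 9.81, 6.68 and 3 in the Cko. On none of these scales did the libraries differ by more than 1.5-fold in any bin for Klf1. Its ratio in the lowest bin was -0.41 (-0.52 to -0.30), and in the highest -0.07 (-0.18 to 0.04).

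**Figure D3:**
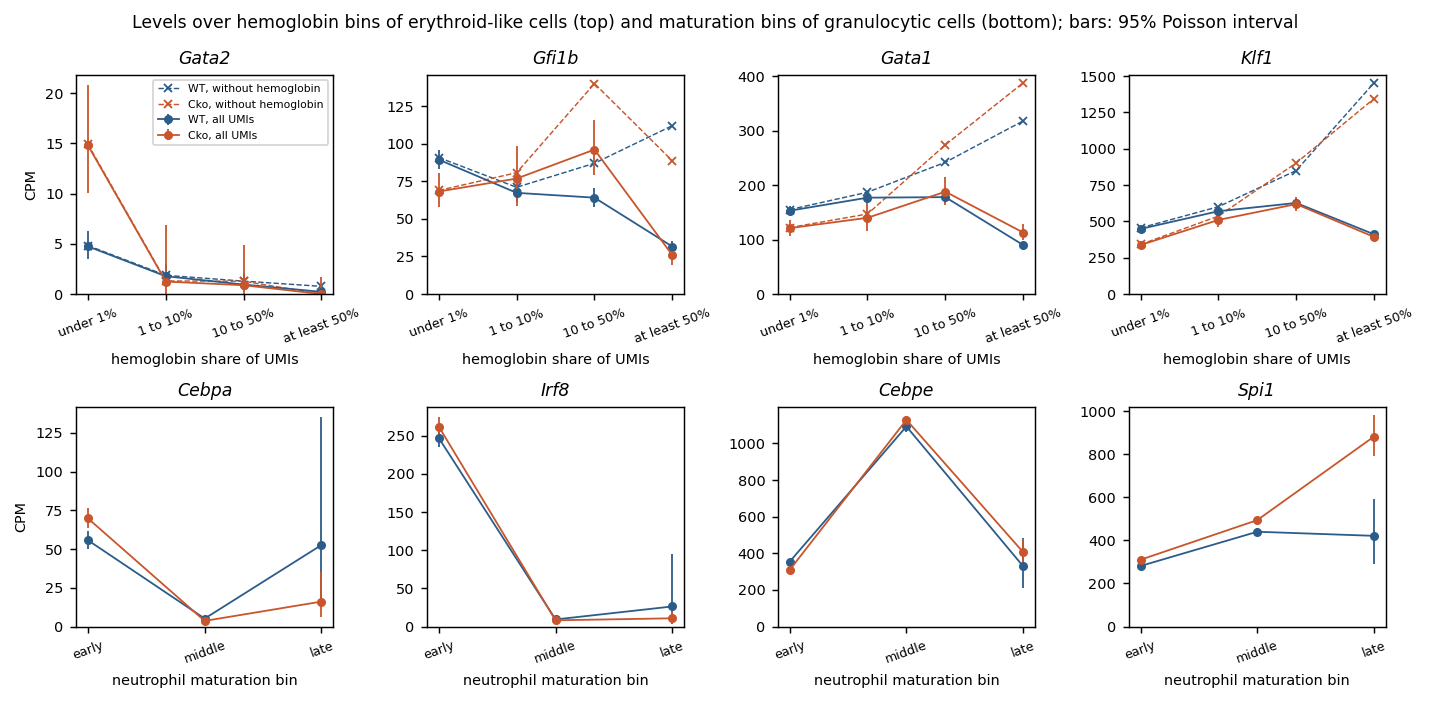
Top, CPM of Gata2, Gfi1b, Gata1 and Klf1 over 4 bins of hemoglobin share in erythroid-like cells, over all UMIs (solid) and without hemoglobin UMIs (dashed). Bottom, CPM of Cebpa, Irf8, Cebpe and Spi1 over 3 maturation bins of GMP-like and neutrophil-like cells, with 95% Poisson intervals; Klf1 peaked at 627 CPM (WT) and 619 CPM (Cko) on the solid lines, Cebpe peaked in the middle bin and Cebpa and Irf8 were high in the early bin, and the late WT bin holds 13 cells.

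Gata2 was found before hemoglobin. In the bin under 1% hemoglobin it was at 4.74 CPM in WT and 14.8 in Cko, and in the bin of at least 50% at 0.216 CPM in the WT, from 2 UMIs, with none in the Cko. In the Mt2/Car1 cells it was at 4.46 CPM in the WT (58 UMIs) and 13.5 in the Cko (33 UMIs), a log2 ratio of 1.59 (0.93 to 2.24), and 99.1% of all genes there had a lower ratio. Spi1 was also higher in these cells, at 9.75 CPM in WT and 20 in Cko (1.03, 0.53 to 1.52), while Gata1, Klf1 and Gfi1b were lower. Whether the Cko cells of this cluster were at an earlier stage was not tested.

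Most Gata2 UMIs were elsewhere. The Ctla2a/Plek cluster, with 178 cells in each library, held it at 88.2 CPM in WT and 106 in Cko (0.26, -0.07 to 0.60), and after thinning 18.5% of its cells in each library held a UMI. Within it, at a finer resolution, 17 WT and 22 Cko basophil and mast cell-like cells, led by Prss34 and Mcpt8, had 586 and 518 CPM of Gata2, the highest level of any group. In 111 WT and 106 Cko megakaryocyte-like cells, led by Pf4 and Gp1bb, it was at 58.5 and 85.6 CPM (0.55, 0.09 to 1.02).

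The megakaryocyte-like cells had Gata1 at 155 CPM in the WT, near its level in erythroid-like cells, and at 97.0 in the Cko (-0.68, -1.03 to -0.33). Klf1, in contrast, was at 41.8 CPM in the WT (45 UMIs) and 100 in the Cko (123 UMIs), a log2 ratio of 1.26 (0.76 to 1.79). This was past 2-fold, as were 9.72% of all genes in these cells, and 99.0% of genes had a lower ratio. Gfi1b was at 52.9 and 42.4 CPM (-0.32, -0.89 to 0.25). Irf8 was also read in this group, at 169 CPM in WT and 95.4 in Cko (-0.825, -1.173 to -0.482). Whether the group holds cells of other kinds was not tested.

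Cebpa, Irf8 and Cebpe divided the GMP-like cells. Over the cluster (590 WT and 545 Cko cells) Cebpa was at 51.0 CPM in WT and 60.2 in Cko (0.24, 0.04 to 0.43), Irf8 at 217 and 223 (0.04, -0.06 to 0.14) and Cebpe at 445 and 453 (0.03, -0.04 to 0.09). At the finer resolution, cells led by Ctsg and Cd34 had much Irf8 and little Cebpe, at 457 and 89.4 CPM in the WT and 351 and 128 in the Cko. Cells led by Elane and Nkg7 had little Irf8 and much Cebpe, at 12.7 and 750 CPM in the WT and 8.43 and 999 in the Cko.

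For Irf8 and Cebpe the ratios in the parts of the GMP-like cells lay farther from 0 than those of the whole. In the Ctsg/Cd34 cells the log2 ratio was -0.38 (-0.48 to -0.29) for Irf8 and 0.52 (0.32 to 0.71) for Cebpe, and in the Elane/Nkg7 cells it was 0.41 (0.34 to 0.49) for Cebpe. Spi1, at 297 and 332 CPM over the whole (0.16, 0.08 to 0.24), had a ratio of 0.37 (0.26 to 0.48) in the Elane/Nkg7 cells. Cebpa was at 67.7 CPM in WT and 81.5 in Cko Ctsg/Cd34 cells (0.27, 0.04 to 0.50). In the Elane/Nkg7 cells it was at 37.0 and 24.3 CPM (-0.60, -1.02 to -0.20), opposite in direction to the whole. None of these lay past 2-fold, as did 1.68% of genes in the former and 3.75% in the latter. The Ctsg/Cd34 cells numbered 256 in WT and 297 in Cko, the Elane/Nkg7 cells 341 and 250.

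Granulocyte maturation was read from 3 gene sums that hold none of the factors, a primary granule sum (Mpo, Elane, Prtn3, Ctsg), a secondary granule sum (Camp, Ngp, Ltf, Fcnb, Chil3) and a late sum (Retnlg, Mmp8, Cxcr2, Il1b, Ccl6). The bins do not match the clusters. The late bin held 13 WT and 83 Cko cells, against 171 and 548 in the Mmp8/Retnlg cluster, so most cells of that cluster lay in other bins. Cebpa was at 55.7 CPM in the early and 5.14 in the middle bin of the WT, and at 69.8 and 3.63 in the Cko. Irf8 dropped as sharply, from 247 to 9.28 CPM in the WT and from 262 to 8.17 in the Cko. Cebpe was at 354 and 1093 CPM in the WT and 309 and 1129 in the Cko.

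Spi1 was present at each stage. It was at 281 and 440 CPM in the early and middle bins of the WT and at 310 and 494 in the Cko. In the late bin of the Cko (83 cells) Spi1 was at 882 CPM and Cebpe at 406. The late WT bin had only 13 cells, with 421 and 329 CPM from 32 and 25 UMIs.

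In the neutrophil-like class Cebpe was at 1095 CPM in WT and 1093 in Cko. It was at 1146 and 1228 CPM in the Camp/Ltf cells (0.10, 0.04 to 0.16) and at 842 and 826 in the Mmp8/Retnlg cells (-0.03, -0.16 to 0.11). The later cluster had less Cebpe than the earlier one in each library by more than the counting error. Spi1 had the reverse order, with 435 CPM in the Camp/Ltf and 523 in the Mmp8/Retnlg cells of the WT and 473 and 623 in those of the Cko. After thinning, 94.2% of the WT and 95.8% of the Cko Camp/Ltf cells held Cebpe, against 1.63% and 1.5% of the Vpreb3/Cd79b B cell-like cells.

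Monocyte-like cells (332 WT and 553 Cko) held Spi1 at a level near that of the neutrophil-like class (449 and 524 CPM) and below that of its later cluster, at 474 CPM in WT and 589 in Cko (0.31, 0.21 to 0.42). With each library clustered on its own this ratio was 1.03 (0.93 to 1.14), past 2-fold. Irf8 was at 503 CPM in WT and 308 in Cko, a log2 ratio of -0.71 (-0.83 to -0.59), and 6.78% of genes had a lower ratio. After thinning, 66.6% of the WT and 50.6% of the Cko cells held Irf8, while for Spi1 it was 77.7% and 82.5%. Cebpa was at 36.4 and 66.1 CPM (0.86, 0.49 to 1.25).

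The parts of the monocyte-like class differed in Irf8. At the finer resolution, cells led by Fn1 and Klf4 (284 WT and 273 Cko) had Irf8 at 480 and 362 CPM (-0.41, -0.54 to -0.27), and cells led by Wfdc17 and Sirpb1c (33 WT and 254 Cko) at 300 and 169 CPM (-0.83, -1.33 to -0.29). Genes past 2-fold made up 3.25% in the former and 10.8% in the latter. The Wfdc17/Sirpb1c cells were the more numerous in the Cko and had the lower Irf8 level in each library. With each library clustered on its own, where the monocyte-like classes hold other cells, the log2 ratio of Irf8 was 0.10 (-0.001 to 0.20), so its direction over the class depended on the clustering.

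The highest Irf8 level of all was in 58 WT and 74 Cko cells led by H2-Aa and Siglech, genes of antigen presentation and of plasmacytoid dendritic cells, which were left unnamed. Irf8 was at 2464 CPM in WT and 1971 in Cko (-0.32, -0.46 to -0.18), where 6.20% of genes lay past 2-fold. In B cell-like cells Irf8 was lower, at 141 and 123 CPM (-0.20, -0.35 to -0.05), close together in the Igll1/Dntt cells (141 and 121) and the Vpreb3/Cd79b cells (147 and 126).

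Ebf1 marked the B cell-like cells. They held 83.9% of its UMIs in WT and 94.8% in Cko, at 2336 and 2228 CPM, a log2 ratio of -0.07 (-0.10 to -0.03), which was 0.01 without called doublets and 0.05 with each library clustered on its own. By stage it was at 1985 CPM in WT and 1959 in Cko in the Igll1/Dntt cells, where the pre-B receptor genes lead, at 2855 and 2688 in the Vpreb3/Cd79b cells, and at 1264 and 1419 in the Ms4a1/Igkc cells, where mature B cell genes lead. The intermediate stage was thus the highest and the last the lowest in each library. In the Ms4a1/Igkc cells (73 WT and 75 Cko) 61.6% of the WT and 46.7% of the Cko barcodes held markers of 2 lineages. Without these Ebf1 was at 798 and 1631 CPM, still the lowest of the 3 clusters. The Cko level was then past 2-fold above the WT level, in few cells. After thinning, 99.6% of the WT and 99.4% of the Cko Vpreb3/Cd79b cells held Ebf1, against 4.09% and 2.61% of the Camp/Ltf neutrophil-like cells.

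Stromal and endothelial-like cells also held Ebf1, at 706 CPM in the WT (148 UMIs in 30 cells) and 319 in the Cko (40 UMIs in 18 cells). This was past 2-fold (-1.15, -1.69 to -0.63), as were 10.6% of genes there, and the class pools several kinds of cell.

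Outside its own cells Ebf1 was higher in the WT in most clusters, at 40.7 and 13.4 CPM in GMP-like, 90.9 and 31.3 in monocyte-like and 27.2 and 2.45 in Mt2/Car1 cells. Klf1 did likewise in some classes outside the erythroid-like cells, at 14.8 and 5.83 CPM in GMP-like, 13.1 and 0.790 in monocyte-like and 11.3 and 2.23 in B cell-like cells. These are ratios past 2-fold of low levels in cells that should lack the factor. Those of Klf1 went with the higher hemoglobin share of the WT cells given above, whose part in them was not tested. In the Ctla2a/Plek cluster Klf1 went the other way, at 34.7 CPM in WT and 73.3 in Cko (1.08, 0.60 to 1.57), as in its megakaryocyte-like cells. The Ebf1 UMIs stood in few cells, 300 in 55 of 590 WT GMP-like cells and 195 in 30 of 332 WT monocyte-like cells. Over all cells Ebf1 was lower in the WT (289 and 368 CPM), and the cause of its ratios here was not tested. Gata1 was not seen in the 553 Cko monocyte-like cells, which allows up to 0.790 CPM, and was at 5.13 CPM in the WT ones.

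**Figure D4:**
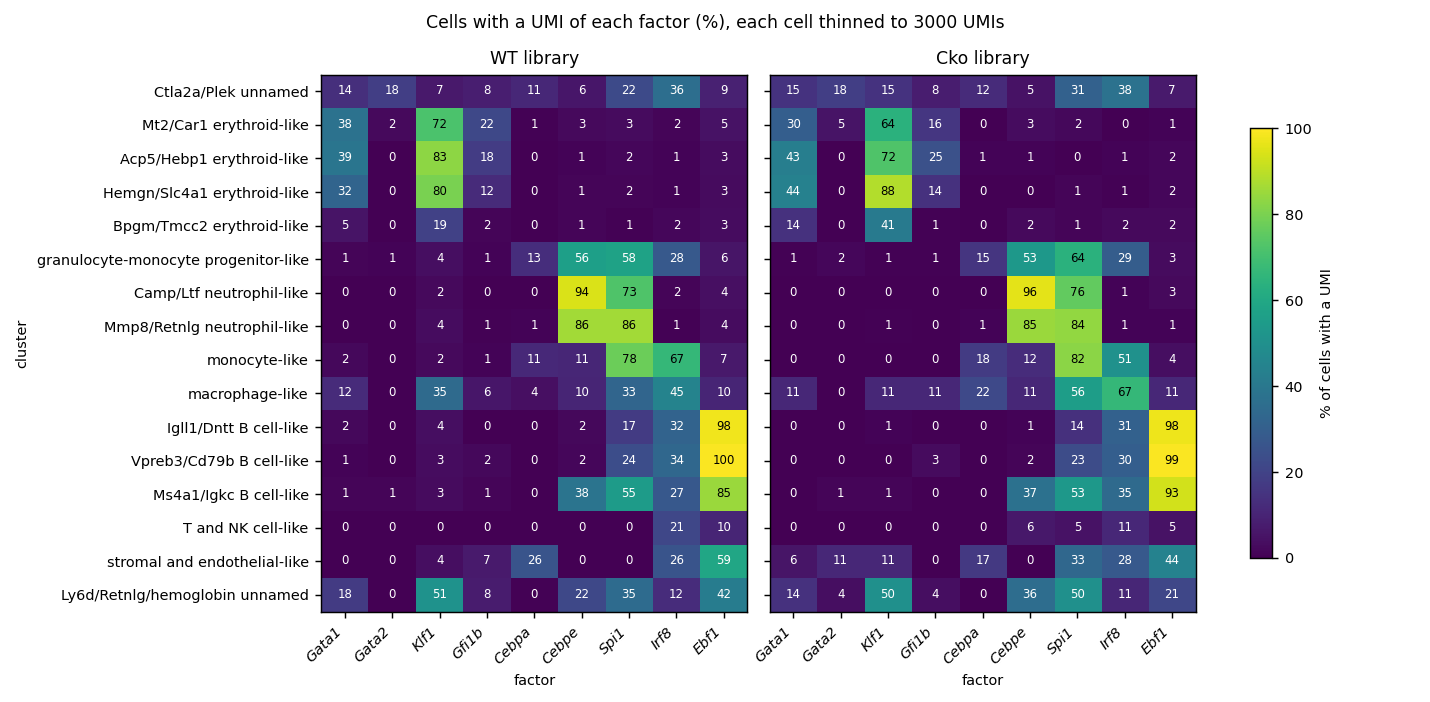
Share of cells with at least 1 UMI of each factor (percent, colour and printed number) by cluster, after each cell was thinned to 3000 UMIs, WT left and Cko right. Ebf1 stood in 99.6% of the WT Vpreb3/Cd79b B cell-like cells, Cebpe in 94.2% of the WT Camp/Ltf neutrophil-like and Spi1 in 77.7% of the WT monocyte-like cells, whereas Gata2 and Cebpa stayed at or below 25.9% in every cluster.

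Co-detection in single cells followed the lineages. In erythroid-like cells, 96.5% of the WT cells with Gata1 also held Klf1 (95.6 to 97.3%), against 67.4% of those without Gata1, and 95.8% against 70.8% of the Cko cells. Gfi1b was found in 47.0% of the WT cells with Gata1 against 18.2% without, and in 49.7% against 18.8% of the Cko cells. Cells with more UMIs hold more of every gene. After thinning, the shares for Klf1 were 81.2% with and 63.0% without Gata1 in the WT and 75.0% and 61.7% in the Cko, and those for Gfi1b drew together, at 15.3% and 13.2% in the WT and 12.5% and 12.2% in the Cko.

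Cebpe and Irf8 were found apart in the GMP-like cells. Of the WT cells with Cebpe 22% held Irf8 (18.3 to 26.2%), against 85.5% of those without Cebpe, and in the Cko it was 26.6% against 84.6%. Thinning kept this difference, with 9.61% against 51.4% in the WT and 7.56% against 54.3% in the Cko. Cebpa went with Irf8 instead, with 47.6% of the WT cells with Cebpa and 30.5% of those without, and 62.7% and 23.9% in the Cko, or 36.8% and 26.5%, and 44.0% and 26.7%, after thinning.

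For Spi1 with Cebpe, and for Spi1 with Irf8 in the WT, the shares with and without the other factor lay close together. They lay farther apart for Irf8 in the Cko monocyte-like cells. The shares for Cebpe are given without thinning. In neutrophil-like cells 92.6% of the WT cells with Cebpe held Spi1 against 92.0% without, and 94.4% against 93.6% of the Cko cells. In monocyte-like cells 81.8% of the WT cells with Spi1 held Irf8 against 79.2% without, and 68.6% against 54.8% of the Cko cells, with 66.7% against 66.2% and 51.8% against 45.4% after thinning.

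Gata1 and Spi1 were mostly in different cells. Over all cells 248 WT cells held both, or 10.9% of the cells with Gata1 against 48.4% of those without, and 99 Cko cells, 22.9% against 76.8%. Of these cells, 61 in WT and 11 in Cko were barcodes with markers of 2 lineages. Without such barcodes, 8.72% of the WT and 21.2% of the Cko cells with Gata1 held Spi1.

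In the megakaryocyte-like cells, which can hold both, 3 of 39 WT cells with Gata1 held Spi1 (7.69%, 1.62 to 20.9%), against 44.4% of those without, and 18 of 45 Cko cells (40.0%, 25.7 to 55.7%), against 47.5%. After thinning, 9.09% of the Cko cells with Gata1 and 22.6% of those without held Spi1. Gata2 went with Gata1 in these cells in both libraries, in 48.7% against 18.1% of the WT cells and 62.2% against 26.2% of the Cko cells. After thinning it was 36.4% against 13.5% of these WT cells, and in the whole Ctla2a/Plek cluster 33.3% against 16.2% of the WT and 30.8% against 16.4% of the Cko cells, with 8 cells that held both in each case.

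**Figure D5:**
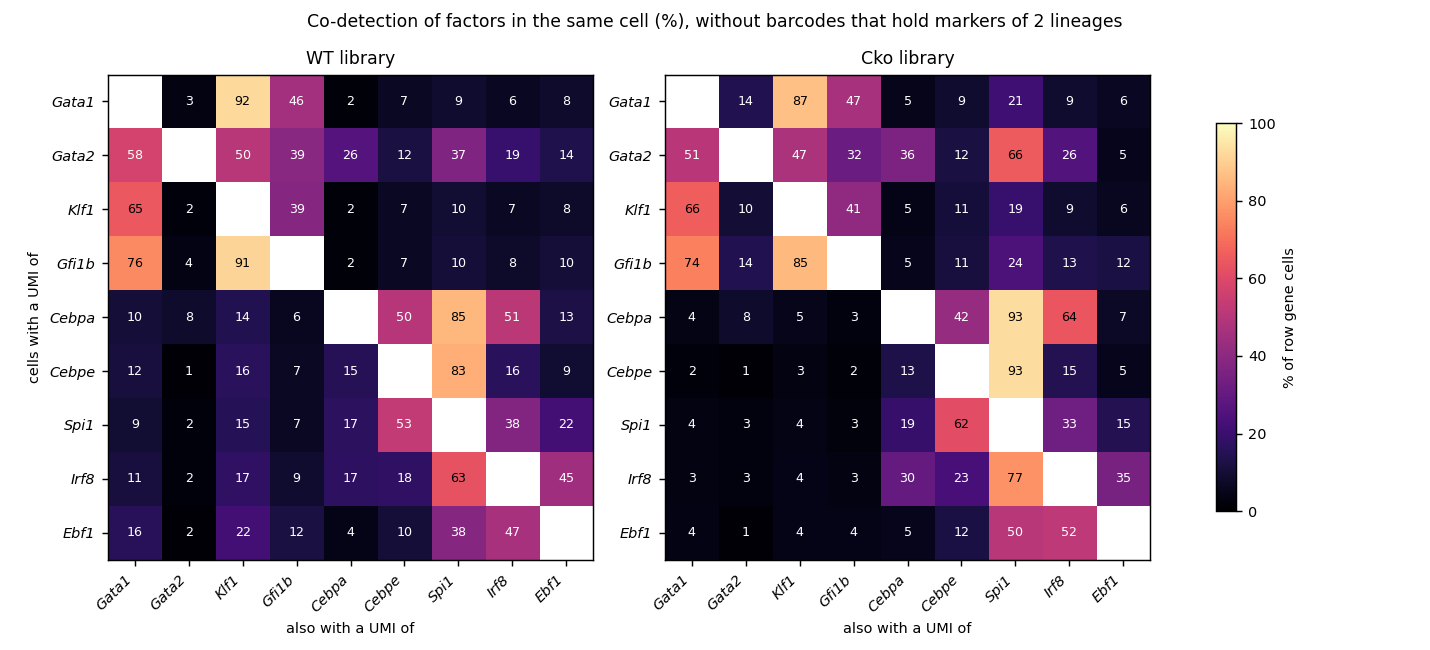
Percent of the cells with a UMI of the row factor that also hold the column factor, over all cells of the WT (left) and Cko (right) library without barcodes that hold markers of 2 lineages. Of the cells with Gata1 92.3% in WT and 87.0% in Cko held Klf1, while for Spi1 it was 8.72% and 21.2%.

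Taken by lineage, with at least 2 UMIs of a factor counted, 2570 WT cells (41.0%) and 432 Cko cells (11.8%) held erythroid factors alone (Gata1, Klf1 or Gfi1b). Myeloid factors alone (Cebpa, Cebpe, Spi1 or Irf8) were held by 1513 WT (24.1%) and 2184 Cko cells (59.6%), and Ebf1 alone by 583 (9.30%) and 366 (9.99%). Erythroid and myeloid factors were together in 127 WT (2.03%) and 43 Cko cells (1.17%), or 69 (1.16%) and 32 (0.896%) once 2-lineage barcodes were left out. Myeloid factors and Ebf1 were together in 364 WT (5.80%) and 302 Cko cells (8.25%), and both Irf8 and Spi1 were present in B cell-like cells.

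In the Ms4a1/Igkc cluster a myeloid factor was read in B cell-like barcodes. Its Cebpe level was 395 CPM in WT and 334 in Cko, and its 30 WT and 30 Cko cells with Cebpe held a median of 33.7% and 34.8% of their UMIs from neutrophil genes, against 0.225% and 0.215% in the cells without. Of these 30 cells, 29 in WT and 27 in Cko carried markers of 2 lineages, and without such barcodes Cebpe was at 21.8 and 37.8 CPM. Klf1 at 233 CPM in the WT macrophage-like cells was likewise in 28 of 50 cells, with a median hemoglobin share of 24.5% against 1.10% in the other cells.

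Over the 12 clusters with at least 50 cells in each library, taken in both libraries (24 points), the genes with the most similar pattern were found by Pearson correlation of log2(CPM + 10), as a description over points that share libraries. For Gata1 they were Samd14 (0.986) and Tal1 (0.984), the latter a partner of GATA1, for Klf1 Ermap (0.987) and the erythropoietin receptor gene Epor (0.985), and for Gfi1b Smim1 (0.940). For Gata2 they were Ctla2a (0.981) and the basophil protease gene Prss34 (0.954). Cebpa was closest to Ccl9 (0.962), Cebpe to Trem3 (0.993) and Pglyrp1 (0.989), Spi1 to Cotl1 (0.993), Irf8 to Lgals1 (0.951), and Ebf1 to the pre-B receptor gene Vpreb3 (0.992) and the B cell receptor gene Cd79a (0.985).

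A list of 51 other lineage factors was read in the class where each was highest. Both libraries listed 42 of them, of which 3 were higher and 2 lower in the Cko past 2-fold, with a median log2 ratio of -0.05. The ratios named here were in small classes. Zeb2 (147 and 366 CPM, 1.32, 0.44 to 2.12) and Maf (426 and 862 CPM, 1.02, 0.48 to 1.53) were higher in the Cko macrophage-like cells. That class had 50 WT and only 9 Cko cells, with 17 Cko UMIs of Zeb2 and 40 of Maf. Hemoglobin took a median of 14.9% of the UMIs of its WT cells and 0.185% of the Cko ones. The share of all genes past 2-fold was not counted in so few cells. Id1 (386 and 175 CPM, -1.14) was lower past 2-fold in the Cko stromal and endothelial-like cells, where 10.6% of genes were past 2-fold. Fos (363 and 183 CPM, -0.98) was also lower there, but just within 2-fold. In the T and NK cell-like cells Lef1 was at 66.6 and 138 CPM from 8 and 45 UMIs, with an interval that included 0 (1.05, -0.05 to 2.34), and 15.8% of genes there were past 2-fold.

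Textbook target genes were read by factor. Of 15 listed targets of Gata1 and Klf1 in erythroid-like cells, 1 was past 2-fold, the transferrin receptor gene Tfrc, at 147 CPM in WT and 308 in Cko (1.06, 0.99 to 1.14), and the median ratio was 0.06. Of all genes in these cells 4.35% were past 2-fold. The most abundant of the targets were the globin genes, with Hbb-bs at 118389 CPM in WT and 149388 in Cko, Hba-a1 at 65814 and 81060, and Hbb-bt at 41439 and 43920. None of 4 targets of Gata2 with enough UMIs was past 2-fold in the named class where each was highest, among them Hdc at 68.1 and 58.7 CPM in neutrophil-like cells and Cd34 at 45.9 and 53.5 CPM in GMP-like cells. The share of all genes past 2-fold was 3.24% in neutrophil-like and 2.24% in GMP-like cells. Gata2 itself was scarce there, with 1 UMI in the neutrophil-like cells of each library and 3.26 and 4.08 CPM in GMP-like cells. The targets were not read in the unnamed Ctla2a/Plek cluster, where Gata2 was highest.

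For Cebpa and Cebpe, 10 targets were read in neutrophil-like cells. Mmp8, of the late granules, was at 115 CPM in WT and 446 in Cko (1.96, 1.82 to 2.10), and Elane, of the primary granules, at 426 and 158 (-1.43, -1.54 to -1.33), while Camp was at 74819 and 70059 and Ngp at 67226 and 66365. Of all genes in these cells 3.24% were past 2-fold. The neutrophil-like class held 171 WT and 548 Cko cells of the later Mmp8/Retnlg cluster, so its makeup by stage differed between the libraries. None of 9 targets of Spi1 and Irf8 in monocyte-like cells was past 2-fold (median 0.30), with Tyrobp at 3110 and 4069 CPM, Cst3 at 2476 and 2080 and Ctss at 699 and 934. None of 10 targets of Ebf1 and Pax5 in B cell-like cells was past 2-fold (median 0.09), with Vpreb3 at 2272 and 2231 CPM, Igll1 at 1240 and 1337 and Cd79a at 1190 and 1284. The share of all genes past 2-fold was 4.31% in monocyte-like and 2.06% in B cell-like cells. Finding none among so few targets was close to this background.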

How the data were processed

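Single cell RNA-Seq (10x Chromium, 3′ end) of BMCs from 1 WT and 1 Cko mouse was analysed. The authors counted UMIs with Cell Ranger (version not given in the sources used here) on GRCm38, per the submitters' processing notes, and deposited whole-number counts per gene and barcode without normalization. The WT held 56382459 UMIs in 6287 barcodes and the Cko 34447224 in 3670. The deposited column of sums and row of totals were dropped, and a duplicated gene row was summed.

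A minimum of 200 genes was set for a barcode. Scrublet (scanpy 1.11.5, expected rate 5%) called 151 WT and 38 Cko cells doublets, and these were not removed. Both libraries were clustered together in Seurat 5.3.0 (R 4.3.3; 2000 variable genes, 20 components, 20 neighbours, mitochondrial and ribosomal shares regressed out) on the 6001 genes listed in both, without the 10 factors, the Stfa family, Xist and Y-linked genes. The resolution was the lowest from 0.1 to 3.0 that gave at least 16 clusters. Names rest on at least 3 markers, in 25% of cells and 1.5-fold enriched, among 25 leading genes, with no other type ahead among the first 10. The names were rebuilt here, so a difference from the study may come from them.

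A level is the sum of the UMIs of a gene in a class, in CPM. Intervals (95%) are exact Poisson for sums, exact binomial for shares and exact conditional for ratios, and cover counting error only. The calculation of the ratio intervals was checked on simulated Poisson counts with 200 changed genes. Such counts follow the model that the intervals assume, so a coverage near 95% was built in. The check does not cover the spread between cells or mice. In erythroid-like cells (5313 genes) the sign was right for 99.5% of the 199 changed genes with at least 50 UMIs, and 95.2% of intervals held the true ratio, and in monocyte-like cells (4952 genes) 100% of 191 and 96.0%. A count of 0 allows up to 3 counts. With 1 library per genotype no test was made. Shares of cells used each cell thinned to 3000 UMIs.

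The text names the 10 factors, Mbtps1, up to 6 other lineage factors with the largest ratios, the most abundant textbook targets and those past 2-fold, and the genes most like each factor among those with at least 500 UMIs in each library. Of the other lineage factors, 1 of the 6 is not reported here. The members, lists and markers were chosen with earlier results of these data known. The promoter motifs, the finer resolution (22 clusters) and the barcodes with markers of 2 lineages (any 2 of at least 1% hemoglobin UMIs, 1% neutrophil granule gene UMIs and 0.1% B cell gene UMIs) were chosen after the data were seen. Alternatives were other clusterings, a class from marker scores, doublet removal, at least 500 genes, other denominators, means over cells, other thinning, 2 UMIs for co-detection, limits of 100 and 200 UMIs and a pseudocount of 1. Scripts ran in Python 3.11.15 with scipy 1.17.1 for intervals, matplotlib 3.10.9 for plots, pandas 2.3.3 and numpy 2.4.6.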

Additional observations from a re-analysis of the deposited data

Results flagged for a closer look

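The Cko/WT log2 ratios of 3 erythroid factors had opposite signs in different erythroid-like clusters, with intervals that did not include 0. The difference between clusters was not tested, since each genotype had 1 library, and the intervals cover counting error only. For Gata1 the ratio was -0.351 in the Mt2/Car1 cells, 0.433 in the Hemgn/Slc4a1 cells and 1.521 in the Bpgm/Tmcc2 cells. Klf1 was at -0.4 in the Mt2/Car1 cells and -0.151 in the Acp5/Hebp1 cells, but at 0.136 in the Hemgn/Slc4a1 cells and 1.212 in the Bpgm/Tmcc2 cells. Gfi1b was at -0.348 in the Mt2/Car1 and 0.605 in the Acp5/Hebp1 cells. In the hemoglobin bins the Klf1 ratio over all UMIs was -0.409, -0.16, -0.019 and -0.067, with none above 0. Gata1 went there from -0.337 in the first bin to 0.332 in the last, and Gfi1b from -0.389 to 0.584 in the 10 to 50% bin. Median hemoglobin also differed within clusters, at 12.6% in WT and 20.2% in Cko Acp5/Hebp1 cells and 64.6% and 58.7% in Hemgn/Slc4a1 cells.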

How the results depend on the processing

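No paired analysis was possible because each genotype had 1 library. Of 83 alternative values of a Cko/WT log2 ratio, 71 stayed within the counting interval, although some for Cebpe in neutrophil-like cells and 1 for Gfi1b in erythroid-like cells, whose intervals include 0, crossed to just above 0. With each library clustered on its own, Irf8 in monocyte-like cells went from -0.71 to 0.098 and Ebf1 in B cell-like cells from -0.07 to 0.052, both to the other side of 0, and Klf1 in erythroid-like cells was -0.287, Cebpa in GMP-like cells 0.734, Cebpe in neutrophil-like cells 0.347 and Spi1 in monocyte-like cells 1.03. Those classes hold other cells. Without called doublets Ebf1 was 0.012, also reversed, and Irf8 -0.52. With classes from marker scores Irf8 was -0.453 and Cebpe 0.203. Gata1 in erythroid-like cells was -0.024 as a mean over cells, and Klf1 was -0.128 without hemoglobin in the denominator. That denominator moved the highest hemoglobin bin to bin 4 for Gata1 and Klf1 in both libraries and for Gfi1b in the WT. With at least 200 UMIs, the genes past 2-fold numbered 124 in erythroid-like (main 232), 63 in GMP-like (main 121), 66 in neutrophil-like (main 155, and 100 at 100 UMIs), 95 in monocyte-like (main 215) and 56 in B cell-like cells (main 108), as fewer genes were tested. Shares moved beyond their counting intervals in 17 of 18 cases with no thinning, in 15 with 2000 UMIs and in 0 without doublets. Co-detection values did so in 12 of 12 cases with thinning, 10 with at least 2 UMIs, 4 without 2-lineage barcodes and 2 without doublets. The cause was not tested where no reason is given. Depth limits Gata2, Cebpa and Gfi1b most, of which a positive cell had a median of 1 or 2 UMIs. It also limits Gata1 and Irf8, with a median of 2 in both libraries, and Spi1, with 2 in the WT and 3 in the Cko.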
